A study of Homo sapiens with 8 samples.

Results

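The genes described here are 10 factors tied to the mesenchymal state and to the SOX family, read in a MYCN-amplified neuroblastoma line after an inhibitor of translation initiation. They are the SOX transcription factors SOX4, SOX9 and SOX11, the transcription factors TWIST1, SNAI2, ZEB1, ZEB2 and PRRX1, and the structural genes VIM and FN1. They were taken by name and not by a rule on their values, although earlier results of these data were known. Each symbol matched 1 of the 58787 gene identifiers of the count table. IMR32 is an established human neuroblastoma line, given in the labels as wild-type neuroblasts, and CR31B is a rocaglate that blocks the RNA helicase eIF4A. One group received CR31B at the IC50 (4 libraries) and the other the vehicle, 0.1% DMSO (4 libraries), and RNA was taken at 6 h. Replicate 1 of both groups was sequenced paired-end and replicates 2, 3 and 4 single-end. A single cell line was used, and the design text calls the 4 libraries of a group biological replicates without naming separate cultures, so p-values measure the spread between these libraries.

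Neuroblastoma cells are known to occur in an adrenergic state, held by transcription factors of the sympathetic lineage, and in a mesenchymal state that resembles neural crest cells and is marked by genes such as PRRX1, SNAI2, VIM and FN1. TWIST, SNAI and ZEB proteins bind E-boxes and repress epithelial genes such as CDH1, and they act in neural crest migration as well as in the epithelial to mesenchymal transition. SOX proteins bind DNA through an HMG box. SOX4 and SOX11 belong to the SoxC group of neuronal progenitors, and SOX9 to the SoxE group of neural crest, glia and cartilage.

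Total counts ran from 43687828 to 64715535 per library. On the first principal component of all tested genes, with 51.8% of the variance, replicate 1 stood in the opposite order to the other replicates: the library labelled CR31B replicate 1 scored -26.4 and the library labelled DMSO replicate 1 scored 32.0, whereas single-end CR31B libraries scored 19.0 to 28.95 and single-end DMSO libraries -29.4 to -25.8. Results are therefore given for pair 1 (the replicate 1 libraries) apart from pairs 2 to 4. All 14 adrenergic markers were at or above 1 CPM (TMM-normalised CPM, the library-scaled count), and in the single-end libraries their summed level was 3234 to 3296 CPM with DMSO and 4229 to 4577 CPM with CR31B. Pair 1 was in the opposite order, with 4330 CPM in the library labelled DMSO and 3255 CPM in the library labelled CR31B. In the single-end libraries 6 of the 14 markers passed the test given below as higher and 4 as lower with CR31B, against 23.8% and 17.6% of all tested genes. Those that passed include GATA3 (log2 fold change 1.78), HAND2 (0.97) and DBH (-0.98), named after their values were seen. The median log2 fold change of the 14 markers was 0.10 under TMM, 0.0055 under upper quartile scaling and 0.023 under total count scaling. Of 8 Schwann or glial markers 1 reached 1 CPM, and 3 (SOX10, GFAP and CDH19) were at 0 counts throughout. Of 9 fibroblast or stromal markers 4 reached 1 CPM, with a sum of 95.6 to 126 CPM in DMSO and 90.8 to 157 CPM in CR31B and FAP at 0. The counts were 1 of 5 for endothelial markers (0.982 to 2.89 CPM in DMSO, 1.60 to 2.29 CPM in CR31B), 0 of 6 for epithelial markers (up to 0.503 CPM) and 0 of 4 for leukocyte markers (up to 0.904 CPM). In the single-end libraries the endothelial marker CDH5 (log2 fold change -0.76) and the leukocyte PTPRC (-0.87) passed the test given below as lower with CR31B. The leukocyte list had 0 to 1 lower calls with 1 library left out. The stromal PDGFRA (1.19) and PDGFRB (0.38) passed as higher. The other 5 of 7 tested stromal markers did not pass. The median of the 7 was 0.07, or -0.03 under upper quartile scaling. These are transcript levels in an established cell line, and whether other cells were present or had a part in the results below was not tested.

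At baseline, 9 of the 10 genes had counts in IMR32. Levels between genes are compared per length, as CPM per 1000 exon bases with the union of all annotated exons of a gene as its length, in the 3 single-end DMSO libraries. VIM, the intermediate filament protein of mesenchymal cells, stood at 73.0 ± 8.32 (SD, n = 3), and TWIST1, a basic helix-loop-helix factor, at 71.6 ± 2.35 (SD, n = 3), with overlapping ranges. SOX11 followed at 44.4 ± 2.43 (SD, n = 3), SOX4 at 28.9 ± 2.56 (SD, n = 3) and ZEB1, a zinc finger E-box repressor, at 18.3 ± 0.944 (SD, n = 3), and none of these ranges overlapped its neighbour. The other genes were far lower. SNAI2, also known as SLUG, had 2.98 ± 1.01 (SD, n = 3) and SOX9 2.86 ± 1.12 (SD, n = 3), with overlapping ranges. ZEB2, the second ZEB repressor, had 1.35 ± 0.0718 (SD, n = 3) and FN1, which encodes the matrix protein fibronectin, 1.31 ± 0.140 (SD, n = 3), again overlapping.

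**Figure D1:**
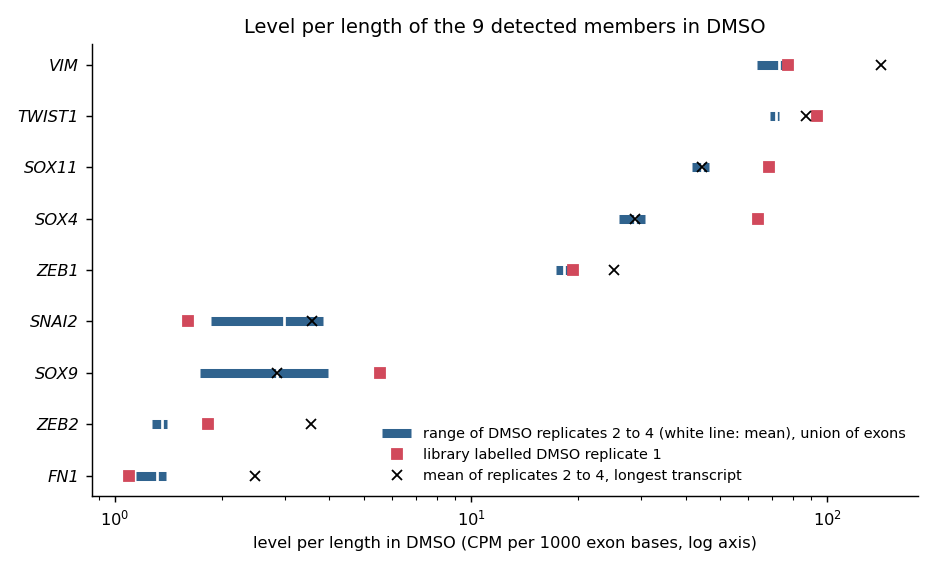
Level per length in DMSO (CPM per 1000 exon bases, log axis) of the 9 genes with counts, where bars span the 3 single-end DMSO libraries, white lines give their mean, squares show the library labelled DMSO replicate 1 and crosses give the mean with the longest transcript as length. VIM and TWIST1 lead near 73.0 and 71.6, ZEB2 and FN1 close the order near 1.35 and 1.31, and the square lies above the bar for SOX4, SOX9, SOX11, TWIST1, ZEB1 and ZEB2.

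With the longest transcript in place of all exons, VIM stood at 141, TWIST1 at 87.4 and ZEB2 at 3.54 CPM per 1000 bases, the last above SOX9 (2.86) in the order but overlapping it, and SOX4 (28.9) and ZEB1 (25.2) overlapped. By level per length over all exons, VIM and TWIST1 each stood above 97.2% of 16673 tested genes with a known length, SOX11 above 94.4%, SOX4 above 90.3% and ZEB1 above 83.4%. SNAI2 (46.7%), SOX9 (45.8%), ZEB2 (34.5%) and FN1 (34.0%) lay below the middle of these genes. PRRX1, a homeobox factor of the mesenchymal state, had 0 counts in all 8 libraries. A count of 0 allows up to 0.0464 to 0.0687 CPM, taking 3 counts per library as the floor, so PRRX1 was not detectable at this depth and was not tested.

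The first comparison asked whether CR31B changed these genes as the libraries are labelled. With all 8 libraries in one fit, 0 of the 9 tested genes passed the threshold, an adjusted p below 0.05 by the quasi-likelihood test of edgeR with Benjamini-Hochberg adjustment over the whole table (a gene that passes is termed called), against a background of 0.0% of 16518 tested genes. Adjusted p-values of the 9 genes ran from 0.707 to 0.990, and 205 genes of the whole table had an unadjusted p under 0.05. That is fewer than the share of 0.05 that chance alone gives. The spread between libraries of a group (biological coefficient of variation) was 16.3% in this fit and 7.46% in the fit of the single-end libraries. DESeq2 and limma voom also called 0 genes. The log2 fold changes as labelled were 0.65 ± 0.37 (SE) for SOX4, 0.85 ± 0.58 for SOX9 and 0.32 ± 0.23 for SOX11.

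Within the 6 single-end libraries SOX4, SOX9, SOX11, ZEB2 and VIM were called, all higher in the libraries labelled CR31B, by 1.28-fold (VIM) to 2.84-fold (SOX9). TWIST1, SNAI2, ZEB1 and FN1 were not called, and 0 of the genes were called lower. In all, 5 of the 10 genes, 9 of them tested, passed, against a background of 41.3% of 16696 tested genes, or 23.8% for higher calls, so a call was common across the whole table. The median log2 fold change was 0.36 over the 9 tested genes and -0.01 over all tested genes. Upper quartile scaling moved the median of all genes to -0.10 and total count scaling to -0.08, and the share of higher calls from 57.5% under TMM to 40.0% and 43.1%. Of the 10 genes, those called higher numbered 4 under upper quartile scaling and 5 under total count scaling. RNA of whole cultures was counted, so a larger share of cells in one state and more RNA per cell cannot be told apart.

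**Figure D2:**
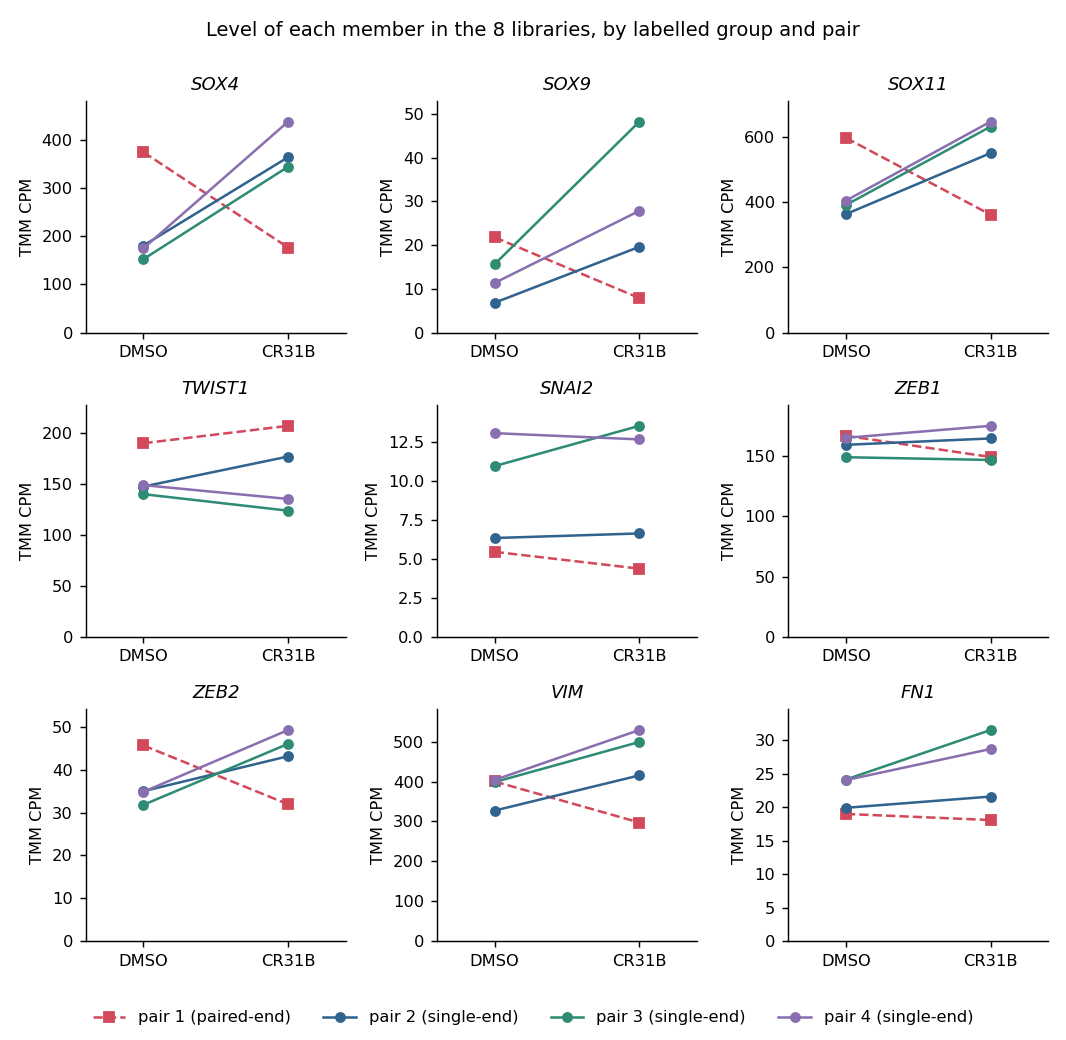
TMM CPM of each of the 9 detected genes in the libraries labelled DMSO and CR31B, with lines joining same-numbered libraries (dashed squares: paired-end pair 1, circles: single-end pairs 2 to 4). The 3 single-end lines rise for SOX4, SOX9, SOX11, ZEB2, VIM and FN1 while the dashed line falls for each, and the lines cross or run flat for TWIST1, SNAI2 and ZEB1.

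SOX4 (ENSG00000124766, chromosome 6, 21592768 to 21598619, plus strand, GRCh38) encodes a SoxC factor found in many progenitor cells and carcinomas. DMSO libraries 1 to 4 held 374, 180.5, 152 and 175 CPM of it. CR31B libraries 1 to 4 held 176, 364, 344 and 438 CPM. The single-end groups did not overlap, and each replicate 1 library lay within the single-end range of the other label. In the single-end libraries SOX4 was 169 ± 15.0 CPM (SD, n = 3) with DMSO and 382 ± 49.3 CPM (SD, n = 3) with CR31B, which is 1.18 ± 0.094 (SE) as a log2 fold change (edgeR adjusted p = 7.04e-06). Pairs 2, 3 and 4 differed by 1.01, 1.18 and 1.32 on the log2 scale. Pair 1 differed by -1.09, with a 95% exact counting interval of -1.12 to -1.05. Of all tested genes 1.99% were called higher by 2-fold or more, SOX4 and SOX9 among them.

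SOX9 (ENSG00000125398, chromosome 17, 72121020 to 72126420, plus strand) encodes the SoxE factor of neural crest and of cartilage. It was at 21.8, 6.81, 15.6 and 11.3 CPM in DMSO libraries 1 to 4. In CR31B libraries 1 to 4 it was at 7.88, 19.6, 48.2 and 27.8 CPM. The single-end groups did not overlap, but relative to the group mean their libraries spread more than those of SOX4 and SOX11. The single-end means were 11.2 ± 4.41 CPM (SD, n = 3) with DMSO and 31.9 ± 14.7 CPM (SD, n = 3) with CR31B, and the log2 fold change was 1.5 ± 0.33 (SE; edgeR adjusted p = 0.00436). Within pairs 2, 3 and 4 the log2 difference was 1.52, 1.63 and 1.30. In pair 1 it was -1.46, with a counting interval of -1.63 to -1.30.

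SOX11 (ENSG00000176887, chromosome 2, 5692667 to 5701385, plus strand) encodes the other SoxC factor, which is highly expressed in neuroblastoma and sympathetic progenitors. Its DMSO levels were 598, 363.5, 391.5 and 405 CPM in libraries 1 to 4. Its CR31B levels were 362, 551, 632 and 648 CPM. In the single-end libraries every CR31B value lay above every DMSO value, as did those of 27.7% of all tested genes. Its log2 fold change of 0.66 ± 0.070 (SE; edgeR adjusted p = 4.44e-05) was smaller than that of SOX4, a difference that was not tested. Pairs 2 to 4 spanned 0.60 to 0.69 and pair 1 was -0.72, with a counting interval of -0.75 to -0.70.

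ZEB2 (ENSG00000169554, chromosome 2, 144364364 to 144524583, minus strand), also called SIP1, acts in neural crest and neuronal development. DMSO libraries 1 to 4 had 45.8, 35.0, 31.9 and 34.9 CPM. CR31B libraries 1 to 4 had 32.0, 43.2, 46.1 and 49.4 CPM. The single-end groups did not overlap, and pair 1 again held the levels in reverse. On the log2 scale ZEB2 rose by 0.45 ± 0.067 (SE; edgeR adjusted p = 0.000414), or by 0.23 once loess offsets for GC content and length were added (adjusted p = 0.0088). Pairs 2 to 4 differed by 0.30, 0.53 and 0.50, and pair 1 by -0.52 (counting interval -0.61 to -0.42).

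ZEB1 (ENSG00000148516, chromosome 10, 31318495 to 31529814, plus strand), its close relative, was at 167, 159.6, 149 and 165 CPM in DMSO libraries 1 to 4 and at 149.5, 165, 147 and 175 CPM in CR31B libraries 1 to 4. The groups overlapped. Its log2 fold change was 0.04 ± 0.069 (SE; edgeR adjusted p = 0.676), and the pairs differed by -0.16, 0.05, -0.02 and 0.08. Offsets for GC content and length moved it to -0.14 (adjusted p = 0.0967), and blocking on the replicate number besides left it at -0.14 and past the threshold (adjusted p = 0.00911). ZEB1 and ZEB2 thus had different calls in the single-end libraries, and the difference between the 2 genes was not tested.

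TWIST1 (ENSG00000122691, chromosome 7, 19020991 to 19117672, minus strand), which is tied to MYCN-amplified neuroblastoma, was abundant in both groups. DMSO libraries 1 to 4 held 190.2, 148, 140.1 and 149 CPM, and CR31B libraries 1 to 4 held 207, 177, 124 and 135 CPM. The CR31B libraries spread on both sides of the DMSO libraries. TWIST1 had a log2 fold change near 0, 0.00080 ± 0.11 (SE; edgeR adjusted p = 0.996). Pairs 1 to 4 differed by 0.12, 0.26, -0.18 and -0.14, so the pairs did not share a direction.

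SNAI2 (ENSG00000019549, chromosome 8, 48917604 to 48921740, minus strand) encodes a zinc finger repressor of neural crest. Its DMSO levels were 5.44, 6.32, 10.9 and 13.0 CPM and its CR31B levels 4.36, 6.61, 13.5 and 12.6 CPM, in libraries 1 to 4. Replicates 3 and 4 stood above replicates 1 and 2 under both labels. For SNAI2 the log2 fold change was 0.12 ± 0.28 (SE; edgeR adjusted p = 0.767), and pair 1 differed by -0.32 (counting interval -0.58 to -0.05).

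VIM (ENSG00000026025, chromosome 10, 17228259 to 17237593, plus strand) had 400.2, 327, 399 and 404 CPM in DMSO libraries 1 to 4. In CR31B libraries 1 to 4 it had 297, 416, 499 and 529 CPM. The single-end groups did not overlap, although the lowest CR31B library stood only just above the highest DMSO library. VIM rose by 0.36 ± 0.10 on the log2 scale (SE; edgeR adjusted p = 0.0159). This call was lost under upper quartile scaling (0.26, adjusted p 0.0549), without DMSO replicate 2 (0.26, adjusted p 0.0546) and without CR31B replicate 4 (0.28, adjusted p 0.0687). Of the exon bases of VIM 24.4% lie opposite exons of other genes, among them VIM-AS1, which was at 0.117 to 0.552 CPM; the strand setting of the counting is not given in the sources used here. Pairs 2 to 4 differed by 0.34, 0.32 and 0.39, and pair 1 by -0.43 (counting interval -0.46 to -0.40).

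FN1 (ENSG00000115414, chromosome 2, 215360440 to 215436172, minus strand) was at 19.0, 19.9, 24.2 and 24.1 CPM in DMSO libraries 1 to 4 and at 18.1, 21.6, 31.6 and 28.7 CPM in CR31B libraries 1 to 4. The single-end groups overlapped through CR31B replicate 2. Its log2 fold change was 0.27 ± 0.13 (SE; edgeR adjusted p = 0.124). In the blocked fit on replicate numbers it was 0.26 (adjusted p = 0.0055), and FN1 was then the sixth gene called. It also passed without a filter on low counts (0.26, adjusted p 0.00791) and without CR31B replicate 2 (0.41, adjusted p 0.00583). Offsets for GC content and length brought FN1 down to 0.06. Pairs 2 to 4 differed by 0.12, 0.39 and 0.26, and the interval of pair 1, at -0.07, included 0 (-0.21 to 0.07).

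**Figure D3:**
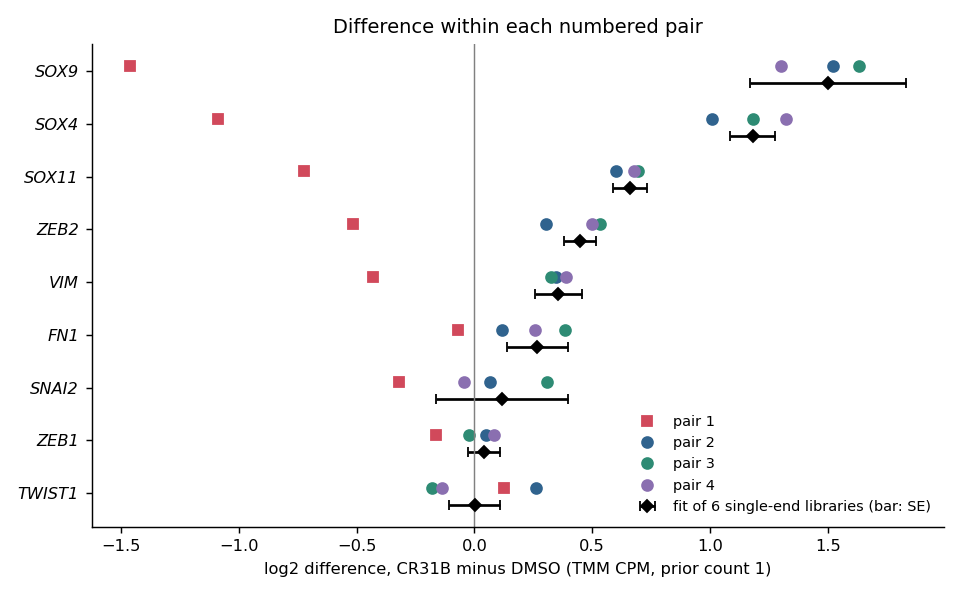
Log2 difference of CR31B minus DMSO within each numbered pair (squares: pair 1, circles: pairs 2 to 4) and log2 fold change of the 6 single-end libraries with its SE (diamonds and bars) for the 9 detected genes. Pair 1 lies left of 0 for 8 genes, from -1.46 for SOX9 to -0.07 for FN1, and right of 0 for TWIST1 at 0.12.

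The difference between pair 1 and the other pairs was itself tested as an interaction of treatment and sequencing layout, in which the spread comes from the single-end libraries because the paired-end layout has 1 library per group. It passed in 5 of the 9 tested genes, against a background of 42.5% of 16518 tested genes, and the same 5 genes had passed within the single-end layout. The term (paired-end minus single-end, log2) was -2.97 for SOX9 (adjusted p 0.00595), -2.26 for SOX4 (adjusted p 9.67e-06), -1.38 for SOX11 (adjusted p 3.4e-05), -0.96 for ZEB2 (adjusted p 0.00026) and -0.78 for VIM (adjusted p 0.0100), all by edgeR with Benjamini-Hochberg adjustment. For ZEB1 it was -0.20 (adjusted p 0.275), for FN1 -0.34 (adjusted p 0.336), for SNAI2 -0.44 (adjusted p 0.601) and for TWIST1 0.12 (adjusted p 0.678). Of all 6901 genes called in the single-end fit, 98.9% had the opposite sign in pair 1, so the reversal seen in the 5 genes is that of the whole table. Layout and replicate number are the same for these libraries and cannot be told apart.

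Upstream sequence is shown for VIM and ZEB1, both on chromosome 10, of which the first was called in the single-end libraries and the second was not. Of the 10 genes 6 matched the RefSeq table of start sites (GRCh38.p14), and the windows of SOX4, ZEB2 and PRRX1 lie inside exons of the gene in GENCODE 29, that of FN1 in part, so these are not printed. Each window holds the 250 bases before a start site, with matches to the searched motifs in capitals.
VIM, chr10:17227991-17228240, plus strand: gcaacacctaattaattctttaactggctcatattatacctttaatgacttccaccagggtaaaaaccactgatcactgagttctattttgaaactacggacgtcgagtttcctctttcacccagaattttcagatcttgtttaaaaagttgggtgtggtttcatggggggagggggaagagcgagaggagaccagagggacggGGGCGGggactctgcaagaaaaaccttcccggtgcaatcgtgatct
ZEB1, first listed start, chr10:31318167-31318416, plus strand: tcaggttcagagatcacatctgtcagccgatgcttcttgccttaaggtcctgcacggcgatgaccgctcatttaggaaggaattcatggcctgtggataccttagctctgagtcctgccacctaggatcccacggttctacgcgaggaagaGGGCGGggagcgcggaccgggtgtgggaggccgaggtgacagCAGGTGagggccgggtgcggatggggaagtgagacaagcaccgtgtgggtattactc
Both strands were searched for the E-box of ZEB and SNAI factors (CACCTG, in 17.5% of 35116 windows of this length), the AP-1 site (TGACTCA, 4.2%), the cyclic AMP response element (TGACGTCA, 1.65%), the ATF4 and CEBP element (TGATGCAA, 0.772%), the SOX core (AACAAT, 8.98%), the CCAAT box (32.0%), the GC box (GGGCGG, 42.6%) and the TATA box (TATAAA, 10.7%). VIM held the GC box alone, with a GC content of 46.0% against a median of 58.0% over all windows. ZEB1 held the GC box and, on the reverse strand, the E-box that the ZEB and SNAI proteins themselves bind, with a GC content of 59.2%. This is 1 of 7 windows listed for ZEB1, of which 2 held the E-box, 5 the GC box and 2 no searched motif. The other ZEB1 window free of exon bases of the gene, chr10:31319518-31319767, held the GC box without the E-box and had a GC content of 73.6%. The window of FN1 held the cyclic AMP response element, the CCAAT box and the GC box, and that of SOX4 the CCAAT box. A match describes the letters of the window and no binding was measured.

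The SOX family around the 3 SOX genes was read next, from a list of 19 genes. Of the 10 tested, 9 were called higher and 0 lower in the single-end libraries, with a median log2 fold change of 0.91. Over all tested genes 23.8% were called higher and 17.6% lower. Of the 9 called SOX genes 3 are SOX4, SOX9 and SOX11. The counts of 9 higher and 0 lower were the same under RLE, upper quartile and total count scaling. SOX2, the pluripotency and neural stem cell factor, was at 5.08 ± 0.339 CPM (SD, n = 3) with DMSO and 17.8 ± 2.08 CPM (SD, n = 3) with CR31B, a log2 fold change of 1.81 ± 0.11 (SE, adjusted p 1.38e-06, edgeR). SOX8, a SoxE gene like SOX9, had 1.14 ± 0.32 (adjusted p 0.0145) at 1.84 ± 0.831 CPM (SD, n = 3) with DMSO and 4.04 ± 1.08 CPM (SD, n = 3) with CR31B.

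The other called members of the family were SOX13 (1.0), SOX7 (0.82), SOX5 (0.60) and SOX12 (0.28), named after their values were seen. SOX7 shares 39.4% of its exon bases with PINX1 on the same strand, so its value is uncertain, and SOX13 was under 1 CPM in 7 of the libraries and at 1.14 CPM in the highest. SOX12, the third SoxC gene, was at 187 ± 4.17 CPM (SD, n = 3) with DMSO. SOX18 had 0.17 (adjusted p 0.432, edgeR). SOX10, the glial SoxE gene, and SOX1, SOX3, SOX14 and SOX17 had 0 counts throughout. In pair 1 SOX2 differed by -2.02 and SOX8 by -1.36, and 8 of the 10 tested passed the interaction, against 42.5% of all tested genes.

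**Figure D4:**
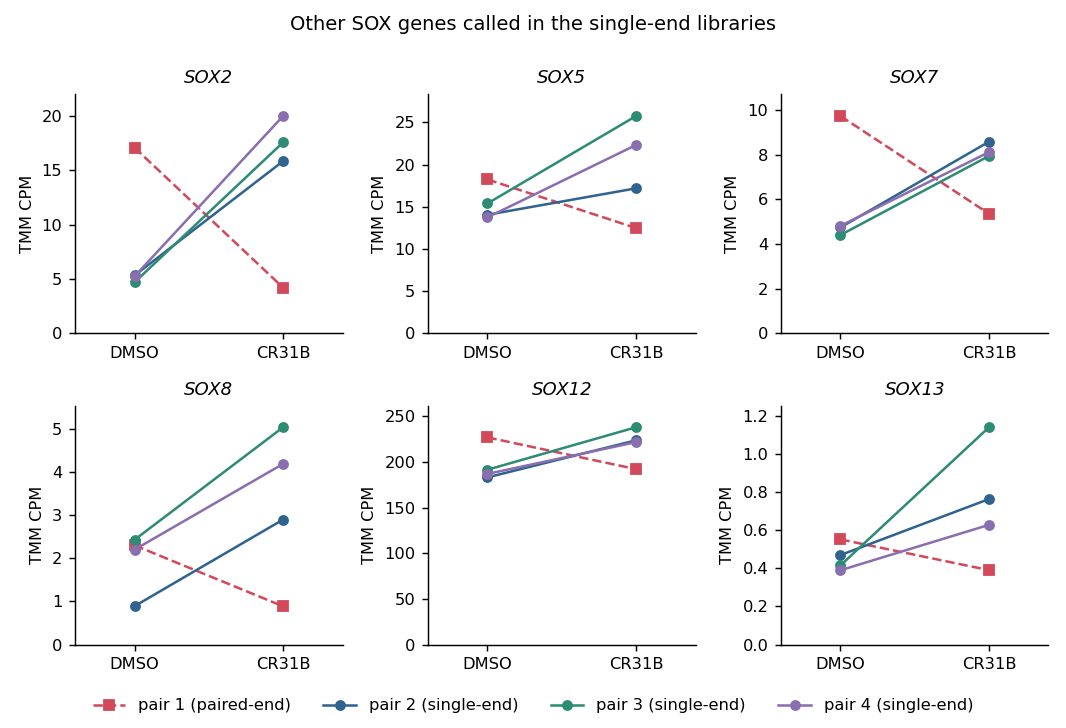
TMM CPM of the 6 further SOX genes called in the single-end libraries, drawn as pairs (dashed squares: paired-end pair 1, circles: single-end pairs 2 to 4). In each panel the 3 single-end lines rise and the dashed line falls, by the largest ratio for SOX2, from 17.1 to 4.20 CPM in pair 1 and from 5.32 to 15.8 CPM in pair 2.

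Other transcription factors of the epithelial to mesenchymal transition gave 6 genes called higher and 1 lower among 11 tested of 16. The shares of all tested genes were 23.8% higher and 17.6% lower. The median of the 11 was 0.41, and 5 were called higher under upper quartile and total count scaling. FOXC1, a forkhead factor of neural crest and mesoderm, had a log2 fold change of 2.02 ± 0.40 (SE) at 2.23 ± 0.83 CPM (SD, n = 3) with DMSO and 9.07 ± 5.37 CPM (SD, n = 3) with CR31B. PRRX2, the paralog of the undetected PRRX1, had 1.18 ± 0.13 at 5.85 ± 0.932 CPM (SD, n = 3) with DMSO and 13.2 ± 1.61 CPM (SD, n = 3) with CR31B. ETS1 had 1.0 ± 0.17 and the E-protein TCF4 0.59 ± 0.063, or 0.38 with offsets for GC content and length. The gene called lower was the E-protein TCF3 (-0.29), named after its value was seen. SNAI1, the closest relative of SNAI2, was at 51.0 ± 10.4 CPM (SD, n = 3) with DMSO and 44.8 ± 3.25 CPM (SD, n = 3) with CR31B and was not called (-0.18, edgeR adjusted p = 0.275), and TWIST2 had 0 counts.

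Transcriptional regulators reported for mesenchymal neuroblastoma cells gave 20 genes called higher and 1 lower among 33 tested of 37. Their median was 0.52, and the shares of all tested genes were 23.8% higher and 17.6% lower. JUN, a subunit of AP-1, had 1.89 ± 0.13 (SE) and FOSL2, its partner, 1.66 ± 0.087. HES1, a NOTCH target, had 1.76 ± 0.30 at 0.607 ± 0.0903 CPM (SD, n = 3) with DMSO, and the NOTCH coactivator MAML2 had 1.58 ± 0.18. The single gene called lower was ELK4 (-0.20), named after its value was seen.

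Of 56 matrix, adhesion and cytoskeleton genes of the mesenchymal state, the company of VIM and FN1, 44 were tested. Among these 8 were called higher and 9 lower, with a median of -0.14. Over all tested genes 23.8% were called higher and 17.6% lower, so calls in both directions were common across the whole table. The lower calls of the list numbered 13 under upper quartile and under total count scaling, 14 with replicate number as a block and 16 with GC and length offsets added to the block. The whole table then had 7519 calls (3010 higher), 7375 (3181 higher), 8540 (4686 higher) and 8292 (4318 higher), in the same order of settings. PDGFRA, the platelet-derived growth factor receptor alpha, had 1.19 ± 0.062 (SE), with 15.8% of its exon bases shared with another gene on its strand. The cadherin CDH11 had 0.99 ± 0.12 and the laminin chain LAMB1 0.68 ± 0.079. COL5A1, a chain of collagen V, fell from 60.1 ± 3.06 CPM (SD, n = 3) with DMSO to 37.1 ± 4.41 CPM (SD, n = 3) with CR31B (-0.69 ± 0.082).

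Among 13 receptors and assembly partners of fibronectin 10 were tested, of which 2 were called higher and 3 lower. With 23.8% higher and 17.6% lower over all tested genes, such calls were common in the whole table. The median of the 10 was 0.07, or -0.02 under upper quartile and -0.0051 under total count scaling. The adaptor TNS3 had 0.31 ± 0.062 (SE) and the integrin chain ITGAV 0.30 ± 0.062. The ITGAV call was lost with GC and length offsets (0.10, adjusted p 0.181, edgeR). FBLN1, a matrix glycoprotein that binds fibronectin, had -0.25 ± 0.054. The heparan sulfate proteoglycan SDC2 had -0.20 ± 0.062, and its call was lost without DMSO replicate 4, CR31B replicate 2 or CR31B replicate 3 (-0.18 to -0.16). The third lower call was ITGB1 (-0.18), named after its value was seen. ITGA5, the chain of the main fibronectin receptor, was at 0.0162 to 0.230 CPM and was not tested.

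Genes of TGF-beta and BMP signalling are known to induce SNAI, TWIST and ZEB genes, and 28 of 32 listed were tested. Their calls were 18 higher and 1 lower (all tested genes: 23.8% higher, 17.6% lower), with a median of 0.46. The lower calls numbered 3 under upper quartile scaling and 4 with GC and length offsets. NOG, an inhibitor of BMP ligands, had 2.41 ± 0.46 (SE) from 0.539 ± 0.194 CPM (SD, n = 3) with DMSO to 2.80 ± 1.90 CPM (SD, n = 3) with CR31B. Without CR31B replicate 3 its log2 fold change was 1.68. The BMP effector SMAD1 had 1.21 ± 0.087, and the corepressors of SMAD proteins TGIF1 and SKIL had 1.05 ± 0.065 and 1.0 ± 0.072. The gene called lower was the activin receptor ACVR1B (-0.22), named after its value was seen. TGFB1 (0.12, adjusted p 0.50) and TGFBR1 (-0.12, adjusted p 0.165, edgeR) were not called, and TGFBR2 was too low to test.

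Genes that ZEB and SNAI proteins repress or that counteract them were mostly low or undetected. Of 24, 20 had a mean under 1 CPM, 7 had 0 counts, and 5 were tested, with a median of -0.02 (0.0060 with GC and length offsets). CDH1, the epithelial cadherin and their best known target, had 1 count in DMSO replicate 4 or 0.0195 CPM, and 0 in the other 7 libraries. Of the 5 tested, 2 were called higher and 1 lower in the single-end libraries. Over all tested genes 23.8% were called higher and 17.6% lower, so such calls were common in the whole table. The catenin CTNND1 (0.91 ± 0.062, SE) and the junction scaffold TJP1 (0.85 ± 0.056), which neuronal cells also express, were called higher. Occludin (OCLN) was called lower (-0.62 ± 0.21) from 1.33 ± 0.184 CPM (SD, n = 3) to 0.858 ± 0.203 CPM (SD, n = 3), and lost the call under DESeq2 (adjusted p 0.0511) and in 4 of the fits that left out 1 library.

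**Figure D5:**
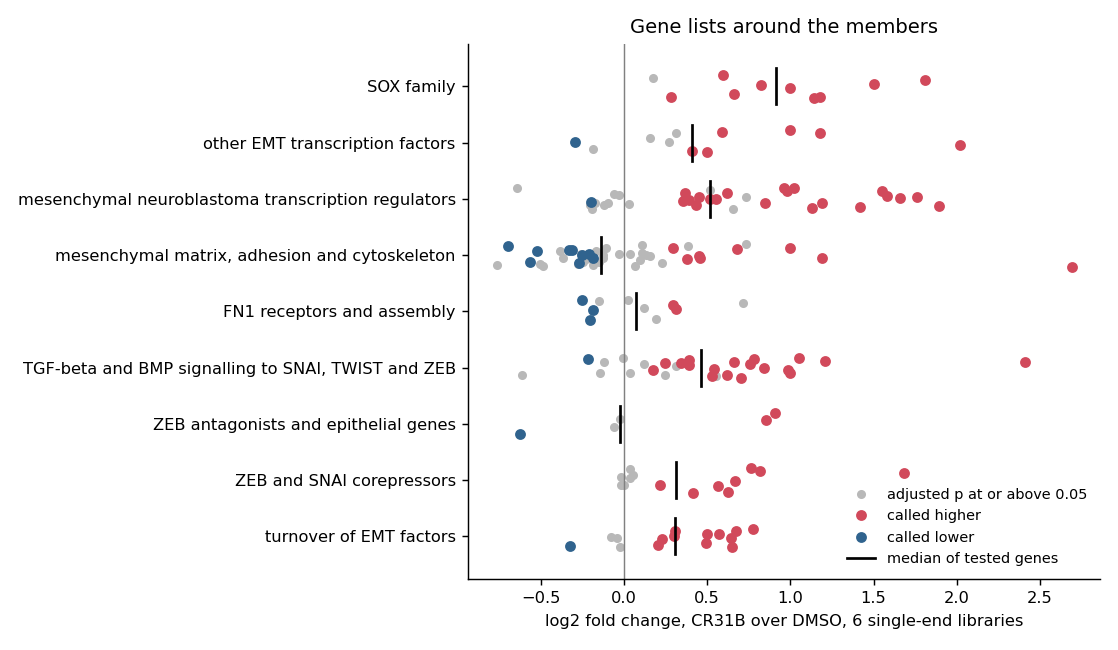
Log2 fold change of each tested gene in the 6 single-end libraries, by gene list (red: called higher, blue: called lower, grey: adjusted p at or above 0.05, black line: median). The SOX family median lies at 0.91 with 9 of 10 genes called higher. The list of matrix, adhesion and cytoskeleton genes lies at -0.14 with calls in both directions. Of all tested genes 23.8% were called higher and 17.6% lower.

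The genes most like each called gene were sought over all 8 libraries among 10798 genes with a mean of at least 5 CPM, by the root mean square difference of log2 CPM after each gene was centred on its own mean. For SOX4 these were KREMEN2 (0.077), PPP3CA (0.081) and TLE4 (0.093). SOX9 was followed least closely, by FAM167A (0.12), MSX2 (0.15) and TSHZ2 (0.17). The nearest to SOX11 were TIPARP (0.034), PPP1R13B (0.035) and CHD8 (0.040), and to ZEB2 ZC3H12C (0.027), AFF4 (0.031) and HAPSTR1 (0.032). VIM had PEX3 (0.061), NAV1 (0.068) and TNFAIP8 (0.072). The distances share the same 8 libraries and their 2 clusters, and describe likeness of level only.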

How the data were processed

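Polyadenylated RNA of 8 IMR32 libraries was sequenced from 250 ng input with 15 PCR cycles and 75 read cycles, per the labels' protocols, which name a small RNA kit. The authors deposited raw counts per Ensembl gene, neither normalised nor pooled. The submitters' processing notes list FastQC 0.11.7, STAR 2.7.2b, edgeR 3.36.0, limma 3.50.3 and GRCh38. The counting tool, annotation and strand setting are not given in the sources used here. Of 58787 identifiers 58515 were in GENCODE 29 (GRCh38), which gave names, coordinates and lengths.

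The test across genes was the quasi-likelihood test of edgeR 4.0.16 under R 4.3.3 ( two-sided, filterByExpr, TMM, Benjamini-Hochberg over all tested genes, threshold 0.05). All 8 libraries were fitted as labelled with layout as a covariate, and the 6 single-end libraries were fitted alone. Levels are TMM CPM, and differences within pairs use log2 CPM (prior count 1). Scripts were tested on simulated counts. Alternatives were other scalings, filters and offsets, a replicate block, DESeq2 1.42.0, limma voom (limma 3.58.1) and each library left out.

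The 10 genes, the lists and the tests were chosen with earlier results of these data known. Beyond the 10, up to 4 called genes per list were named by size of change at a mean level of 1 CPM or more, as were the 3 most like genes of each called gene. No 2 libraries were alike within sampling noise (smallest mean chi-square per gene 7.29). Deviations from the group means correlated at 0.21, 0.38 and 0.16 between same-numbered single-end libraries, and at -0.30 to 0.089 between those of different number. The main fits did not use the replicate numbers as pairs, which entered as a block in alternative fits. Counting intervals and floors cover counting error only, since the labels describe no molecular identifiers. Of the cell type markers, 1 gene is not reported here.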

Additional observations from a re-analysis of the deposited data

Results flagged for a closer look

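In all, 5 genes had a treatment effect in the paired-end libraries that differed from that in the single-end libraries (interaction term, paired-end minus single-end, log2, edgeR with Benjamini-Hochberg adjustment). The term was -2.26 for SOX4, -2.97 for SOX9, -1.38 for SOX11, -0.963 for ZEB2 and -0.783 for VIM. Such a difference was common across the whole table, where the term passed in 42.5% of 16518 tested genes. Pair 1 ran the other way for 98.9% of the whole table's 6901 single-end calls. The reversal is therefore not particular to these 5 genes. The paired-end layout holds 1 library per group, and its part in the difference was not tested apart from that of replicate 1.

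A library far from the other 3 of its labelled group was found in 2 of 18 groups of 4 libraries, where chance gives about 0.9 (1 in 20) if groups are independent. They are not, since all genes share the same 8 libraries, so the 2 counts cannot be weighed against each other. For SOX4 the library labelled DMSO replicate 1 was the highest of the DMSO group, with a gap to the next library of 0.872 of the group's range. This library also lay on the side of the single-end CR31B libraries on the first principal component (32.0), so it is not a separate observation from the reversal of pair 1. For VIM the library labelled DMSO replicate 2 was the lowest of the DMSO group, with a gap of 0.93 of the range.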

How the results depend on the processing

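As labelled, 0 genes and 0 of the 10 described genes were called under every scaling, filter, model and tool run on all 8 libraries. The single-end libraries alone gave 6901 genes and 5 of the described genes. Leaving out 1 library gave 0 to 6920 genes and 0 to 5 of the described genes, with calls without DMSO replicate 1 (6906) and without CR31B replicate 1 (6920) and none in the other fits. In the single-end libraries the calls of SOX4, SOX9, SOX11 and ZEB2 held in every alternative run. Over the 5 called genes 77 of 80 alternative values kept the call and 3, all of VIM, lost it. Over the other named genes 534 values kept the call and 10 lost it. With replicate number as a block, 8540 genes and 6 of the described genes were called, the sixth being FN1 (0.258, adjusted p 0.0055, edgeR, Benjamini-Hochberg); SOX4 had 1.17, SOX9 1.49, SOX11 0.658, ZEB2 0.447 and VIM 0.354, and the block ended no call of these. Genes near 0 changed sign. TWIST1 in the single-end libraries was -0.0148 with the block, -0.0112 under RLE and DESeq2, -0.096 under upper quartile and -0.0786 under total count scaling, -0.0104 without a filter, -0.0278 with a stricter one and -0.0157 with voom, and -0.163 to 0.106 with 1 library left out. As labelled it was -0.0114 under upper quartile and -0.00435 under total count scaling, and -0.08 to 0.109 with 1 library left out. SNAI2 was -0.131 to 0.382 in the single-end libraries with 1 library left out. As labelled SNAI2 was -0.0298 under upper quartile scaling, -0.0224 under total count scaling, -4.9e-05 with DESeq2 and -0.183 to 0.184 with 1 library left out. ZEB1 in the single-end libraries was -0.0565 under upper quartile and -0.0392 under total count scaling, -0.143 with GC and length offsets, -0.145 with offsets and block, and -0.016 to 0.11 with 1 library left out. As labelled ZEB1 was 0.0406 in the single-end libraries alone and -0.0601 to 0.0416 with 1 library left out, and its interaction was 0.00927 under upper quartile scaling. The cause of these changes was not tested. Depth limits PRRX1, which had 0 counts.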

Other observations

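Cofactors through which ZEB and SNAI proteins act gave 8 genes called higher and 0 lower among 14 tested in the single-end libraries. The shares of all tested genes were 23.8% higher and 17.6% lower. The median log2 fold change of the cofactors was 0.32, and 1 was called lower under upper quartile scaling and with GC and length offsets. EP300, a histone acetyltransferase, was at 131 ± 4.67 CPM (SD, n = 3) with DMSO and 421 ± 39.7 CPM (SD, n = 3) with CR31B, or 1.68 ± 0.071 as a log2 fold change (SE; edgeR adjusted p = 5.07e-07). In pair 1 EP300 differed by -1.68. The Polycomb subunit EED had 0.82 ± 0.057 and the scaffold SIN3A 0.77 ± 0.054. BMI1 had 0.66 ± 0.056 and shares 23.3% of its exon bases with the readthrough gene COMMD3-BMI1 on the same strand.

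Genes that turn over or stabilise SNAI, TWIST and ZEB proteins gave 11 higher and 1 lower call among 15 tested, with a median of 0.30. Over all tested genes 23.8% were called higher and 17.6% lower. Under upper quartile scaling the list had 8 higher and 3 lower calls. The F-box genes FBXO11 and FBXW7 had 0.78 ± 0.057 (SE) and 0.65 ± 0.063, and 26.9% of the exon bases of FBXO11 lie opposite exons of other genes. The deubiquitinase USP27X had 0.67 ± 0.11, and the kinase GSK3B, which marks SNAI1 for degradation, 0.64 ± 0.049. The gene called lower was PPIL2 (-0.32), named after its value was seen.

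Among antisense and divergent RNAs beside the described genes 8 matched an identifier and 4 were tested. Of these 4, 1 was called higher and 0 lower in the single-end libraries, against 23.8% and 17.6% of all tested genes. ZEB1-AS1 was called, at 9.81 ± 0.557 CPM (SD, n = 3) with DMSO and 13.9 ± 1.71 CPM (SD, n = 3) with CR31B (0.51 ± 0.10, SE, adjusted p 0.00249, edgeR, Benjamini-Hochberg), with -0.74 in pair 1, while ZEB1 had 0.04. Of its exon bases 9.55% lie opposite ZEB1 exons, and reads of the 2 genes there cannot be told apart if strand was not used in the counting. CASC15 and LINC01152 were not called, nor was VIM-AS1 (0.71, adjusted p 0.170).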
